A study of Homo sapiens with 8 samples.

Results

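The 10 genes CCND1, CCND2, CCND3, CCNE1, CCNE2, CDK2, CDK4, CDK6, RB1 and MYC form the core of the machinery that takes a cell from G1 into S phase. They were taken from 22428 named genes with a probe on the arrays by their symbols, each gene through its brightest probe over all arrays. CCNE2 had a 2nd probe, so that there were 11 probes in all. RNA from OVSAHO and KURAMOCHI, both established cell lines of serous ovarian cancer, was measured on 8 one-color microarrays, 2 for each of 4 groups. The groups were OVSAHO cells with simvastatin, OVSAHO cells with L-778123, KURAMOCHI cells with simvastatin and KURAMOCHI cells with L-778123 (written L778123 in the sample labels). Simvastatin inhibits HMG-CoA reductase, the enzyme that makes mevalonate, and L-778123 inhibits farnesyltransferase and geranylgeranyl transferase, which attach mevalonate products to proteins. The comparison of the drugs was made to find genes that simvastatin regulates beyond protein prenylation.

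Growth signals raise the D-type cyclins (CCND1, CCND2 and CCND3), which bind and activate the kinases CDK4 and CDK6. These kinases phosphorylate RB1, the retinoblastoma protein, which then releases E2F transcription factors, and the E2F factors in turn drive the E-type cyclins (CCNE1 and CCNE2) that activate CDK2. MYC is a transcription factor that binds the E-box word CACGTG with its partner MAX and promotes growth and entry into the cell cycle.

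Cells without a drug, or with vehicle alone, were not among the arrays analysed, so that a gene's difference between simvastatin and L-778123 does not show which drug moved it, and the concentrations and times of these cultures are not given in the sources used here. The labels do not say whether the 2 arrays of a group came from separate cultures, so the p-values measure only the spread between these arrays, which may be technical. All arrays lay on 1 slide, where cell line and drug had positions of their own, so position and group cannot be told apart. Signal is given as log2 intensity over the 75th percentile of the array, and this percentile lay between 324 and 437 before scaling. A probe counted as called at an adjusted p under 0.05 with a difference of at least 2-fold, from limma over 33753 probes, those that exceeded background clearly on both arrays of 1 group or more. All 10 of the listed serous carcinoma markers, such as PAX8 and WT1, were above background on every array of both lines. Of 5 fibroblast markers, 0 were above background on all OVSAHO arrays and 2 on all KURAMOCHI arrays (COL3A1 and COL1A1), DCN and LUM were so on no array, and their summed log2 signal ran from -3.73 to -3.36 in OVSAHO, against 1.27 to 1.70 in KURAMOCHI. Of 5 leukocyte markers, 3 were above background on all arrays of both lines, with a summed log2 signal of 0.77 to 1.05 and 0.015 to 0.13. Of 4 endothelial markers, 2 were above background on all arrays of both lines and PECAM1 on none, with a summed log2 signal of -2.16 to -0.16 in OVSAHO and -0.73 to -0.28 in KURAMOCHI. The part of these markers in the differences between lines was not tested.

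The start regions of CDK4, CDK6 and CCNE1 are shown because MYC binds CACGTG, and these 3 genes, with probes well above background on all arrays, differed in how far they moved with the drugs. Each is the plus or minus strand window of RefSeq in GRCh38.p14 that runs from 250 bases before to 50 bases after a start of the gene, read 5′ to 3′ along the gene, with CACGTG in capitals. The CDK4 window is chr12:57752261-57752560 on the minus strand, the CDK6 window is chr7:92836524-92836823 on the minus strand, and the CCNE1 window is chr19:29811741-29812040 on the plus strand.
CDK4: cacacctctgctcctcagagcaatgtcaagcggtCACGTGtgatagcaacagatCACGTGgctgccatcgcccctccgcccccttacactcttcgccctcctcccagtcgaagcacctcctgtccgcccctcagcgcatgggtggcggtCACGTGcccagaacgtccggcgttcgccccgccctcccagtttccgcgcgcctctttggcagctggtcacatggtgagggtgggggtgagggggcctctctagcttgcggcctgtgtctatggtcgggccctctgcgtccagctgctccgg
CDK6: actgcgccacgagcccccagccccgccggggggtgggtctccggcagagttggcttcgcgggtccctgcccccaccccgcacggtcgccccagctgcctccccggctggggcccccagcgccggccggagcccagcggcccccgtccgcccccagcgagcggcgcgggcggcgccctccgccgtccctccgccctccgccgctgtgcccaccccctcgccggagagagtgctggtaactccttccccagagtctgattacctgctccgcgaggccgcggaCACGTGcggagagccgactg
CCNE1: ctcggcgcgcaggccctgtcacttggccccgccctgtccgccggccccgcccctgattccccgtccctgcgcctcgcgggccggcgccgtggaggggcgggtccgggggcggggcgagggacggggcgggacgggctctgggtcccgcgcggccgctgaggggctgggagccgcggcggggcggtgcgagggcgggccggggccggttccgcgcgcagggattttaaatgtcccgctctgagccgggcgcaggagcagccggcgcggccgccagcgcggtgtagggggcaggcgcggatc

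CDK4 held the word CACGTG 3 times, at -216, -196 and -101 bases from the start. CDK6 held it 1 time at +30, and CCNE1 did not hold it, nor did the CCND3 and RB1 windows searched here. The word reads the same on both strands and was present in 7.26% of 35116 windows of the same length. These windows leave out chromosome 8, and 33 of them, or 0.094%, held 3 or more copies. Windows were also searched on both strands for the E2F words TTTGGCGC, TTTCCCGC, TTTGCCGC, TTTCGCGC, TTTGGCGG and TTTCCCGG (5.33% of windows) and the AP-1 words TGAGTCA and TGACTCA (4.95% of windows). The windows matched by symbol and used here were those of 5 genes, CCND3, CDK4, CDK6, CCNE1 and RB1. They held none of these E2F or AP-1 words, which says only that these letters are not there. Windows on chromosome 8, where CCNE2 and MYC lie, were not used. The only RB1 window used was chr13:48476200-48476499 on the plus strand, with 38.33% G and C. Other starts of RB1 were therefore not searched. G and C made up 66.0% of the CDK4 window, 78.0% of the CDK6 window and 81.0% of the CCNE1 window, against a median of 58.67% over the same 35116 windows. A 2nd CDK6 window, chr7:92833910-92834209 on the minus strand, held no CACGTG and had 68.67% G and C, so that the CDK6 count depends on the start taken.

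Most of these genes were lower with simvastatin than with L-778123 in OVSAHO, while MYC and CCND3 were slightly higher. In OVSAHO, 5 of the 9 genes tested were called lower with simvastatin than with L-778123 (CCND1, CCNE1, CCNE2, CDK2 and CDK6) and 0 were called higher. Over all tested probes 11% were called in OVSAHO, 6.19% lower and 4.78% higher. In KURAMOCHI, only CCNE2 was called among the 9 genes, also lower, where 5.59% of all tested probes were called, 3.54% lower and 2.05% higher. At the adjusted p alone, 6 of the 9 genes were lower and 2 higher in OVSAHO, where 48.1% of all probes passed, and 5 were lower and 1 higher in KURAMOCHI, where 31.4% passed. The median log2 difference of the 9 genes was -1.03 in OVSAHO and -0.56 in KURAMOCHI, against 0.014 and 0.0017 over all tested probes. Scaling to the 75th percentile added 0.30 to every OVSAHO difference and 0.14 to every KURAMOCHI difference on the log2 scale, and the differences below are relative to it. Without that scaling the higher share of called probes was 20.9% in OVSAHO and 22.9% in KURAMOCHI, in place of 43.6% and 36.7%, and 39.6% for the drug difference in OVSAHO minus that in KURAMOCHI, in place of 54.3%. Each array measured the RNA of a whole culture, so fewer cells with a transcript and less of it per cell cannot be told apart.

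**Figure D1:**
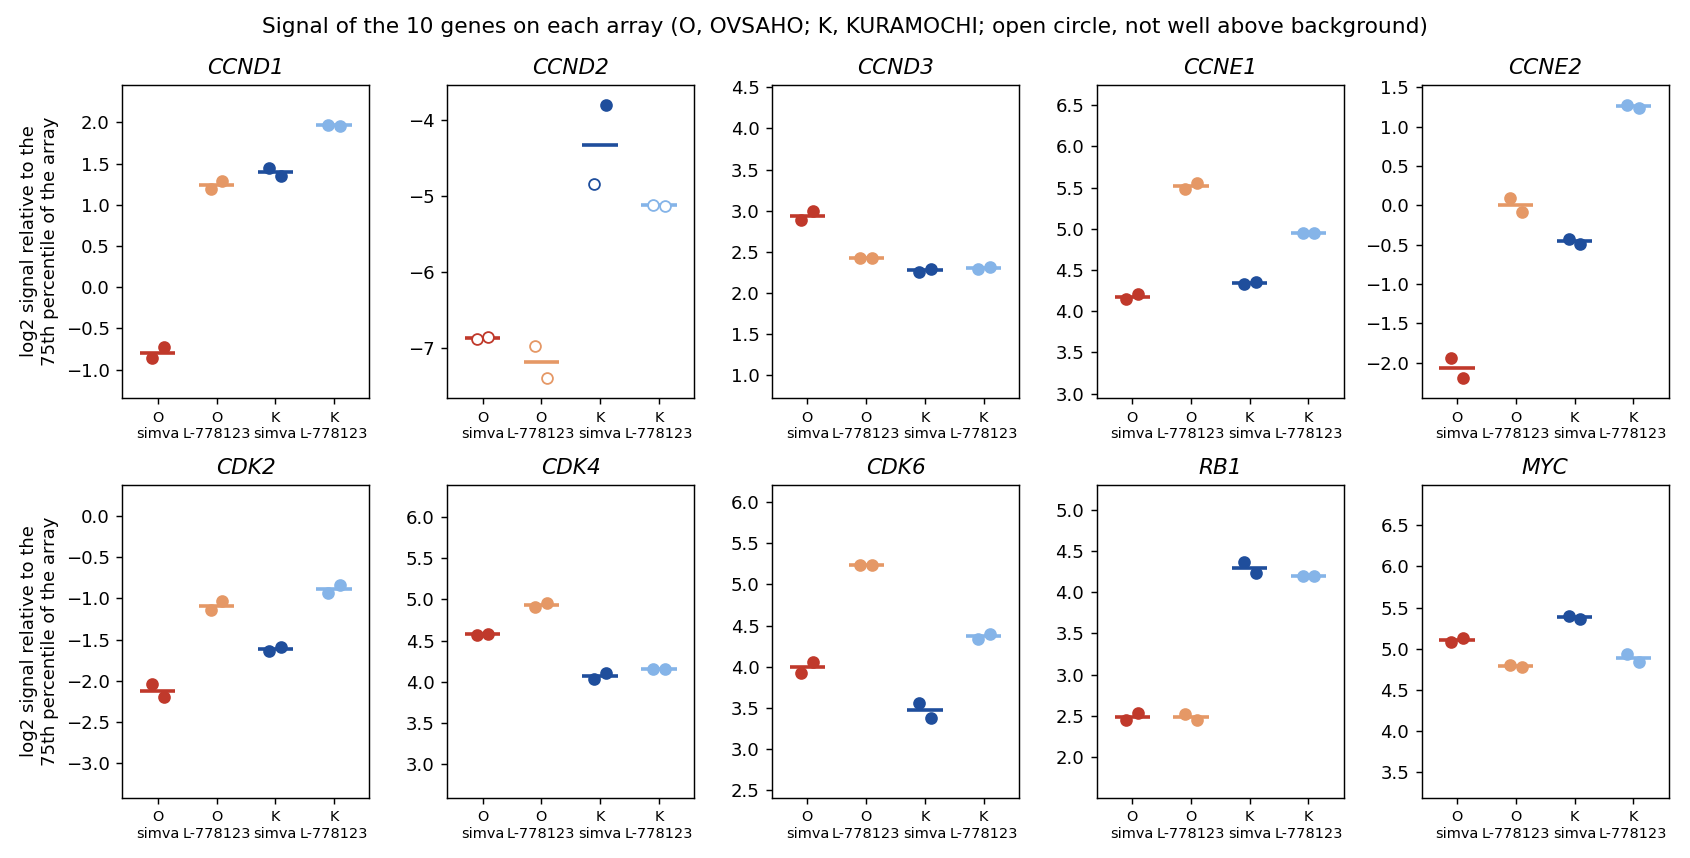
Log2 signal relative to the 75th percentile of the array for each of the 10 genes, with 1 point per array (2 per group, O for OVSAHO and K for KURAMOCHI), a bar at the group mean and open circles for arrays not well above background. CCND1 lay at -0.86 and -0.73 with simvastatin in OVSAHO and between 1.20 and 1.97 on all other arrays, RB1 separated the cell lines, and CCND2 was well above background on 1 array. The panels have the same height in log2 units, except for slightly taller ones for CCND2 and CCNE2, and they have different zero points.

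Cyclin D1, encoded by CCND1, is the D-type cyclin most often linked to growth factor signals in epithelial cells. The log2 signal of CCND1 in OVSAHO was -0.86 and -0.73 on the simvastatin arrays and 1.20 and 1.29 on the L-778123 arrays. In KURAMOCHI it was 1.45 and 1.35 with simvastatin and 1.97 and 1.96 with L-778123. The groups did not overlap in either line, and the simvastatin arrays of OVSAHO stood far below all others. With simvastatin CCND1 was 4.10-fold lower in OVSAHO (log2 difference -2.04, SE 0.0736, 95% interval -2.22 to -1.85, adjusted p = 3.36e-05). In KURAMOCHI the difference was -0.56 (SE 0.0736, adjusted p = 0.00373), a 1.48-fold difference below the fold threshold. The order of the groups was KURAMOCHI with L-778123, KURAMOCHI with simvastatin, OVSAHO with L-778123 and OVSAHO with simvastatin. The neighbours KURAMOCHI with simvastatin and OVSAHO with L-778123 were not separated by the test (log2 difference 0.16, adjusted p = 0.105).

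CCND3, which encodes cyclin D3, went the other way in OVSAHO. Its log2 signal there was 2.89 and 2.99 with simvastatin and 2.43 on both L-778123 arrays. The KURAMOCHI arrays gave 2.26 and 2.30 with simvastatin and 2.29 and 2.31 with L-778123, so the groups overlapped in that line only. CCND3 was 1.43-fold higher with simvastatin in OVSAHO (log2 difference 0.51, SE 0.0591, adjusted p = 0.00124), below the fold threshold, and without scaling between arrays the difference was 0.22 (adjusted p = 0.0762). The KURAMOCHI difference was -0.024 with a 95% interval of -0.17 to 0.12 (adjusted p = 0.787). OVSAHO with simvastatin was the highest of the groups, and the other 3 groups were not separated from their neighbours in the order (adjusted p = 0.105 and 0.787).

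CCND2, which encodes cyclin D2, could not be tested. Its probe was well above background on 1 of 8 arrays, with a log2 signal of -4.84 and -3.81 on the KURAMOCHI simvastatin arrays, and only the 2nd of these was above background. Its signals of -5.12 on both KURAMOCHI L-778123 arrays, -6.88 and -6.85 on the OVSAHO simvastatin arrays and -6.98 and -7.39 on the OVSAHO L-778123 arrays were not well above background.

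The E-type cyclins CCNE1 and CCNE2 were both lower with simvastatin in OVSAHO. The log2 signal of CCNE1 in OVSAHO was 4.14 and 4.21 with simvastatin and 5.48 and 5.55 with L-778123. KURAMOCHI cells had values of 4.33 and 4.36 with simvastatin and 4.95 on both L-778123 arrays. No groups overlapped within a line, and the L-778123 arrays of OVSAHO were the highest. CCNE1 was 2.53-fold lower with simvastatin in OVSAHO (log2 difference -1.34, SE 0.0582, 95% interval -1.48 to -1.19, adjusted p = 5.45e-05) and 1.52-fold lower in KURAMOCHI (-0.61, SE 0.0582, adjusted p = 0.0014), which is below the fold threshold. The order was OVSAHO with L-778123, KURAMOCHI with L-778123, KURAMOCHI with simvastatin and OVSAHO with simvastatin, with every neighbour separated at an adjusted p of at most 0.0466.

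CCNE2 was the gene called in both lines. On its brighter probe the log2 signal in OVSAHO was -1.94 and -2.19 with simvastatin and 0.10 and -0.08 with L-778123. In KURAMOCHI the values were -0.43 and -0.49 with simvastatin and 1.27 and 1.24 with L-778123. The groups lay apart in both lines, with simvastatin the lower one each time. CCNE2 was 4.21-fold lower with simvastatin in OVSAHO (log2 difference -2.07, SE 0.104, 95% interval -2.33 to -1.82, adjusted p = 7.9e-05) and 3.28-fold lower in KURAMOCHI (-1.71, SE 0.104, 95% interval -1.97 to -1.46, adjusted p = 0.000373). The dimmer CCNE2 probe moved the same way. It was not well above background on the OVSAHO simvastatin arrays, which lay at least 2.98-fold below the L-778123 arrays (adjusted p = 0.000511), and in KURAMOCHI, where 1 of 2 simvastatin arrays was above background, its log2 difference had a 95% interval of -2.40 to -1.60 (adjusted p = 0.000818).

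**Figure D2:**
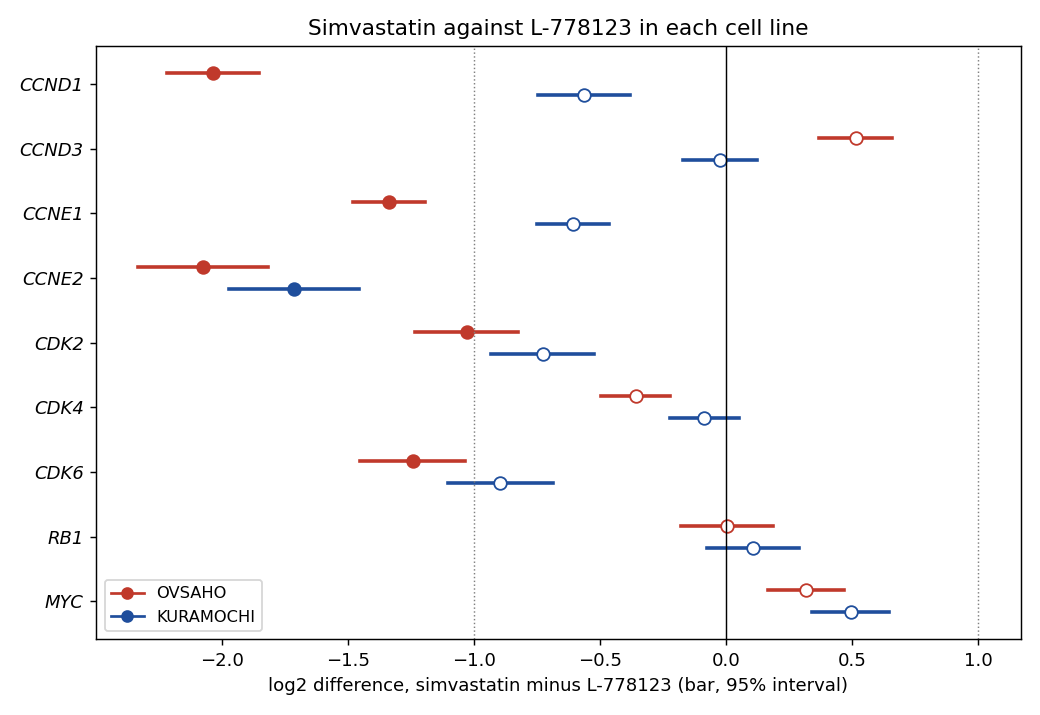
Log2 difference between simvastatin and L-778123 for the 9 tested genes in OVSAHO and KURAMOCHI, with points for the estimates from 2 arrays per group and bars for their 95% intervals. Filled points passed an adjusted p under 0.05 and 2-fold, and dotted lines mark 2-fold. CCND1 (-2.04 against -0.56) lay furthest apart between the lines, and CCNE2 (-2.07 and -1.71) was filled in both.

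Among the kinases, CDK6 and CDK2 were called in OVSAHO and CDK4 was not. CDK6 and CDK4 are the partners of the D-type cyclins. The log2 signal of CDK6 in OVSAHO was 3.93 and 4.06 with simvastatin and 5.23 and 5.24 with L-778123. On the KURAMOCHI arrays it was 3.56 and 3.38 with simvastatin and 4.34 and 4.40 with L-778123. Groups did not overlap within a line, and simvastatin was the lower one in both. CDK6 was 2.37-fold lower with simvastatin in OVSAHO (log2 difference -1.24, SE 0.0841, adjusted p = 0.000192) and 1.86-fold lower in KURAMOCHI (-0.90, SE 0.0841, adjusted p = 0.00132), below the fold threshold. Without scaling between arrays the KURAMOCHI difference was -1.04 and was called (adjusted p = 0.00095).

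The log2 signal of CDK4 in OVSAHO was 4.57 and 4.58 with simvastatin and 4.91 and 4.96 with L-778123. For KURAMOCHI they were 4.03 and 4.10 with simvastatin and 4.15 on both L-778123 arrays. The CDK4 groups lay close together within each line and further apart between lines. CDK4 was 1.28-fold lower with simvastatin in OVSAHO (log2 difference -0.36, SE 0.0552, adjusted p = 0.00353), which without scaling was -0.66, and the KURAMOCHI difference was -0.088 (95% interval -0.22 to 0.05, adjusted p = 0.275).

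CDK2 is the kinase partner of the E-type cyclins. Its log2 signal in OVSAHO was -2.03 and -2.20 with simvastatin and -1.14 and -1.03 with L-778123. The values in KURAMOCHI were -1.63 and -1.59 with simvastatin and -0.93 and -0.84 with L-778123. As for CDK6, the groups did not overlap and simvastatin was the lower one in both lines. CDK2 was 2.04-fold lower with simvastatin in OVSAHO (log2 difference -1.03, SE 0.0827, 95% interval -1.23 to -0.82, adjusted p = 0.000349), just past the fold threshold, and 1.66-fold lower in KURAMOCHI (-0.73, SE 0.0827, adjusted p = 0.00241). The OVSAHO call was lost with normexp background correction (-0.59), without OVSAHO simvastatin replicate 2 (-0.95) and without OVSAHO L-778123 replicate 2 (-0.97), all below 2-fold.

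RB1, the gene of the retinoblastoma protein, did not pass the test between the drugs in either line. Its log2 signal in OVSAHO was 2.44 and 2.53 with simvastatin and 2.53 and 2.44 with L-778123. In KURAMOCHI the signal was 4.37 and 4.23 with simvastatin and 4.19 on both L-778123 arrays. The OVSAHO groups overlapped and the KURAMOCHI groups differed by less than the gap between the 2 simvastatin arrays. The difference between the drugs was 0.0032 in OVSAHO (95% interval -0.18 to 0.18, adjusted p = 0.976) and 0.10 in KURAMOCHI (95% interval -0.08 to 0.29, adjusted p = 0.325). Without scaling between arrays the OVSAHO value was -0.29 (adjusted p = 0.0471) and the KURAMOCHI value was -0.037 (adjusted p = 0.821).

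MYC was slightly higher with simvastatin in both lines. Its log2 signal in OVSAHO was 5.08 and 5.14 with simvastatin and 4.80 and 4.78 with L-778123. KURAMOCHI arrays read 5.40 and 5.36 with simvastatin and 4.94 and 4.84 with L-778123. The groups did not overlap in either line, but the distance between them was small. The log2 difference was 0.32 in OVSAHO (1.25-fold, SE 0.0611, adjusted p = 0.00816) and 0.49 in KURAMOCHI (1.41-fold, SE 0.0611, adjusted p = 0.00321), both below the fold threshold. In OVSAHO this rested on the scaling, since without it the difference was 0.020 (adjusted p = 0.879), and in KURAMOCHI it was then 0.35 (adjusted p = 0.0348).

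The probes of CCND1, RB1 and MYC had 10 spots each on an array, 8 to 10 of them left after outlier spots were dropped, and the other members had 1, so the spread within an array could be measured for these 3 genes. The standard deviation between the spots of an array was 0.0487 to 0.0985 on the log2 scale for CCND1, 0.0412 to 0.0709 for RB1 and 0.0304 to 0.0730 for MYC. The gap between the 2 arrays of a group reached 0.13 for CCND1, 0.14 for RB1 and 0.10 for MYC. The difference of CCND1 between the drugs in each line and that of RB1 between the lines were larger than either spread.

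**Figure D3:**
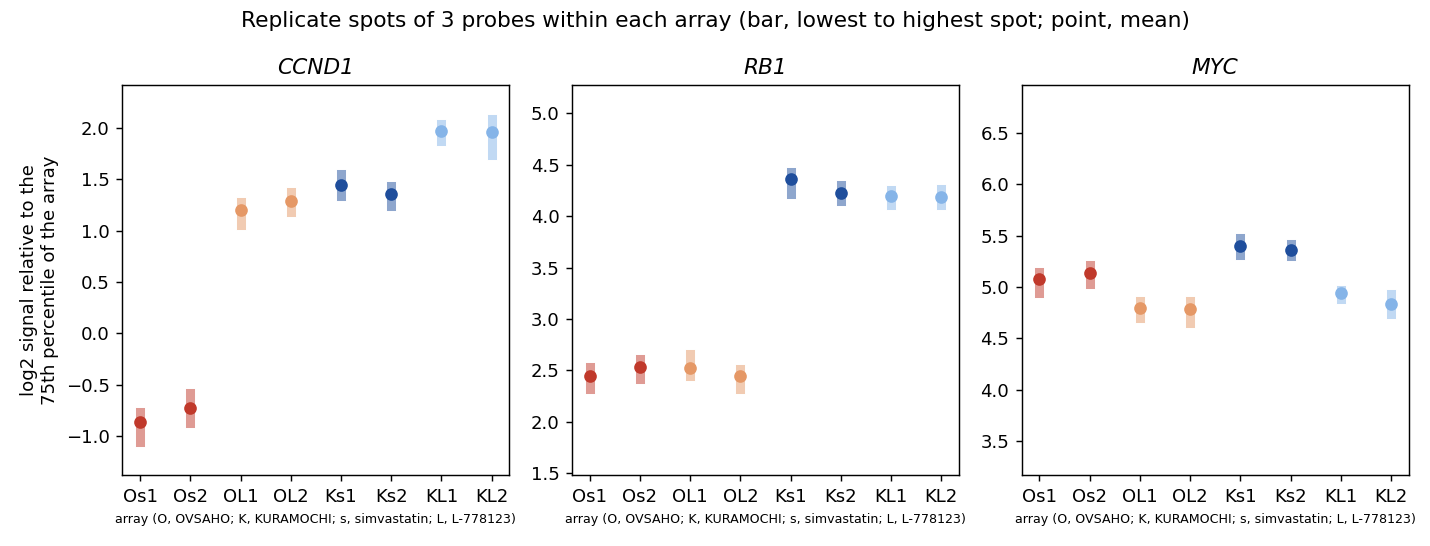
Log2 signal relative to the 75th percentile of the array for the spots of the CCND1, RB1 and MYC probes, with a bar from the lowest to the highest spot and a point at the mean on each of 8 arrays (O, OVSAHO; K, KURAMOCHI; s, simvastatin; L, L-778123). The standard deviation between spots stayed at or below 0.0985, while CCND1 differed by 2.04 between the drugs in OVSAHO.

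The difference between the lines in their response to the drugs was tested directly, as the OVSAHO difference minus the KURAMOCHI difference. Among the 9 genes only CCND1 was called, where 7.1% of all tested probes were, 3.25% lower and 3.86% higher. The fall of CCND1 with simvastatin relative to L-778123 was 1.47 log2 units larger in OVSAHO (value -1.47, SE 0.104, 95% interval -1.73 to -1.21, adjusted p = 0.000909). CCNE1 (-0.73, SE 0.0823, adjusted p = 0.00357) and CCND3 (0.54, SE 0.0836, adjusted p = 0.00943) passed the adjusted p but not 2-fold, and CCND3 did not pass it without scaling (0.38, adjusted p = 0.0756). Over all tested probes 22.9% passed the adjusted p alone. The other 6 genes did not pass. Their values were -0.36 for CCNE2 (95% interval -0.72 to 0.0036, adjusted p = 0.138), -0.30 for CDK2 (-0.59 to -0.012, adjusted p = 0.123), -0.27 for CDK4 (-0.46 to -0.078, adjusted p = 0.0579) and -0.35 for CDK6 (-0.64 to -0.053, adjusted p = 0.0912). For RB1 the value was -0.10 (-0.36 to 0.16, adjusted p = 0.525) and for MYC it was -0.18 (-0.39 to 0.038, adjusted p = 0.203). A larger response of CDK2, CDK4, CDK6 or CCNE2 in OVSAHO was therefore not shown.

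Between the lines, RB1, CCND1 and CCNE2 were lower in OVSAHO than in KURAMOCHI and CDK4 and CDK6 were higher. Averaged over the drugs, 3 of the 9 genes were called lower in OVSAHO and 0 higher, where 33.7% of all tested probes were called, 16.1% lower and 17.6% higher. The share among the 9 genes was thus near that of all probes. All 9 passed the adjusted p alone, as did 77.7% of all probes. RB1 was 3.39-fold lower in OVSAHO (log2 difference -1.76, SE 0.0519, 95% interval -1.89 to -1.63, adjusted p = 1.06e-06), and all 4 OVSAHO arrays lay below all 4 KURAMOCHI arrays. CCND1 was 2.74-fold lower (-1.46, SE 0.052, adjusted p = 2.13e-06) and CCNE2 2.69-fold lower (-1.43, SE 0.0734, adjusted p = 9.08e-06). CDK6 was 1.62-fold higher in OVSAHO (0.69, SE 0.0594, adjusted p = 8.91e-05), CDK4 1.56-fold higher (0.65, SE 0.039, adjusted p = 1.82e-05) and CCND3 1.31-fold higher (0.39, SE 0.0418, adjusted p = 0.000242), all below the fold threshold. The remaining values were 0.20 for CCNE1 (adjusted p = 0.00484), -0.35 for CDK2 (adjusted p = 0.00189) and -0.18 for MYC (adjusted p = 0.00866).

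The line difference was also taken within each drug. With simvastatin CCND1 was 4.57-fold lower in OVSAHO than in KURAMOCHI (log2 difference -2.19, adjusted p = 3.46e-06), and with L-778123 it was 1.65-fold lower (-0.72, adjusted p = 0.000273). RB1 was 3.51-fold lower with simvastatin (-1.81, adjusted p = 6.44e-06) and 3.27-fold lower with L-778123 (-1.71, adjusted p = 8.22e-06), and the test of the difference between these values is the one given above, with an adjusted p of 0.525. CCNE2 was lower in OVSAHO by 3.05-fold with simvastatin (-1.61, adjusted p = 3.7e-05) and by 2.37-fold with L-778123 (-1.25, adjusted p = 0.000112). The 2nd CCNE2 probe, which was above background on both arrays of each line with L-778123, gave -1.17 there (adjusted p = 0.00104). CCNE1 changed direction, at -0.16 with simvastatin (adjusted p = 0.0466) and 0.57 with L-778123 (adjusted p = 0.000279). With simvastatin 3 of the 9 genes were called, all lower, where 34.6% of all probes were (16.7% lower and 17.9% higher), and with L-778123 RB1 and CCNE2 were called lower, where 33.1% of all probes were (15.9% lower and 17.2% higher). At the adjusted p alone 9 genes passed with simvastatin, against 70.9% of all probes, and 6 passed with L-778123, against 69.5%. The drug and line comparisons share the same arrays and are not independent of each other.

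**Figure D4:**
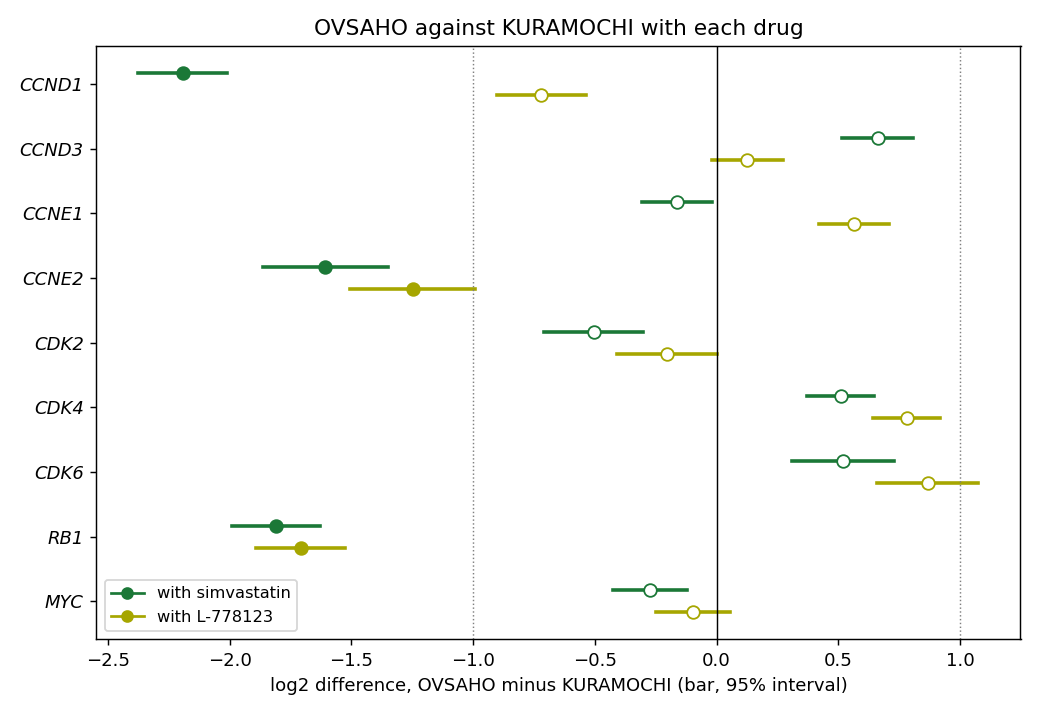
Log2 difference between OVSAHO and KURAMOCHI for the 9 tested genes with simvastatin and with L-778123, with points for the estimates from 2 arrays per group, bars for their 95% intervals, filled points for an adjusted p under 0.05 with 2-fold and dotted lines at 2-fold. RB1 lay at -1.81 and -1.71, and CCND1 at -2.19 with simvastatin and -0.72 with L-778123.

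The genes whose log2 signal followed a member most closely over the 8 arrays were found among 14476 others, for each tested member that spanned at least 1 log2 unit between groups. For CCND1 these were ADORA1 and TNNI1 (Pearson's r 0.999 and 0.998), for CCNE1 ITGA7 and ERCC6L (0.997 and 0.996) and for CCNE2 TRNP1 and CENPW (both 0.998). For CDK2 they were CDC25C and KIF14 (0.993 and 0.992), for CDK6 ANAPC15 and ZWINT (both 0.995) and for RB1 ZNF557 and FGFR1OP2 (0.9996 and 0.9995). Such values are common in 4 groups of 2 arrays, since r was above 0.95 for 211 genes with CCNE1, 257 with CDK6, 265 with CDK2, 397 with CCNE2, 476 with CCND1 and 1988 with RB1.

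The counts for the lists of inhibitors, effectors and targets that follow stand against all tested probes, of which 11% were called in OVSAHO (4.78% higher and 6.19% lower) and 5.59% in KURAMOCHI (2.05% higher and 3.54% lower). Of 8 CDK inhibitor genes, 3 were called higher and 1 lower with simvastatin in OVSAHO and 2 higher in KURAMOCHI, with median log2 differences of 0.58 and 0.098. The KURAMOCHI median ran from -0.14 to 0.22 with each array left out in turn and was the negative value without KURAMOCHI simvastatin replicate 1. CDKN1A, which encodes the inhibitor p21, was at least 9.30-fold higher with simvastatin in OVSAHO, where it was not well above background with L-778123 (adjusted p = 3.21e-05), and 2.40-fold higher in KURAMOCHI (log2 difference 1.26, SE 0.128, adjusted p = 0.00169). CDKN1C, which encodes p57, was 5.09-fold higher in OVSAHO (2.35, SE 0.0868, adjusted p = 3.57e-05) and 2.10-fold higher in KURAMOCHI (1.07, SE 0.0868, adjusted p = 0.000831). The 3rd gene called higher in OVSAHO was CDKN2B, with a large SE (1.11, SE 0.332, adjusted p = 0.0377). The count of called genes in the list, in either direction, fell from 4 to 2 with normexp or without OVSAHO L-778123 replicate 1. The gene called lower was CDKN3, a phosphatase that acts on CDK2 (-1.03, SE 0.0724). CDKN1B, which encodes p27, was 0.71 higher in OVSAHO and 0.57 in KURAMOCHI, below the fold threshold. CDKN2A did not pass in either line, at -0.16 in OVSAHO (adjusted p = 0.0708) and -0.13 in KURAMOCHI (adjusted p = 0.151). The list as a whole was therefore mixed in direction.

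Downstream of RB1, 22 of 22 tested E2F target genes of the G1 to S transition had negative values in both lines. Over all tested probes, 48.9% had negative values in OVSAHO and 49.8% in KURAMOCHI. With simvastatin 16 of them were called lower in OVSAHO and 12 in KURAMOCHI and 0 higher, with medians of -1.30 and -1.04. RRM2, a subunit of ribonucleotide reductase, was the lowest in both, 6.26-fold lower in OVSAHO (-2.65, SE 0.161, adjusted p = 0.000139) and 3.38-fold lower in KURAMOCHI (-1.76, SE 0.161, adjusted p = 0.00123). GINS2, part of the replicative helicase, was 4.81-fold lower in OVSAHO, and ORC1, part of the origin recognition complex, 3.16-fold lower in KURAMOCHI. MKI67, a marker of cycling cells, was lower with simvastatin by similar amounts (-1.15 in OVSAHO and -1.16 in KURAMOCHI, SE 0.101, with a difference between lines of 0.018 and an adjusted p of 0.942).

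Of 17 genes of the RB family, E2F and DP factors and their complexes, 5 were called lower in OVSAHO and 4 in KURAMOCHI and 0 higher, with medians of -0.60 and -0.15. E2F1, an activating E2F, was 4.30-fold lower with simvastatin in OVSAHO (-2.11, SE 0.058, adjusted p = 2.04e-05) and 2.50-fold lower in KURAMOCHI (-1.32, SE 0.058, adjusted p = 0.000189). The repressor-type E2F7 was 4.99-fold and 3.39-fold lower, and E2F8 was 4.89-fold lower in OVSAHO. Of 21 regulators of the G1 cyclins and kinases, 6 were called lower in OVSAHO and 4 in KURAMOCHI, with 0 and 1 higher and medians of -0.16 and -0.22. CDC25A, the phosphatase that activates CDK2, was 4.34-fold lower in OVSAHO and 2.32-fold lower in KURAMOCHI, and CCNA2, the S phase cyclin, was 2.85-fold lower in OVSAHO. CDK1, the mitotic kinase, was 2.24-fold lower in KURAMOCHI, and the 1 regulator called higher there was CABLES1 (1.11, SE 0.061).

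**Figure D5:**
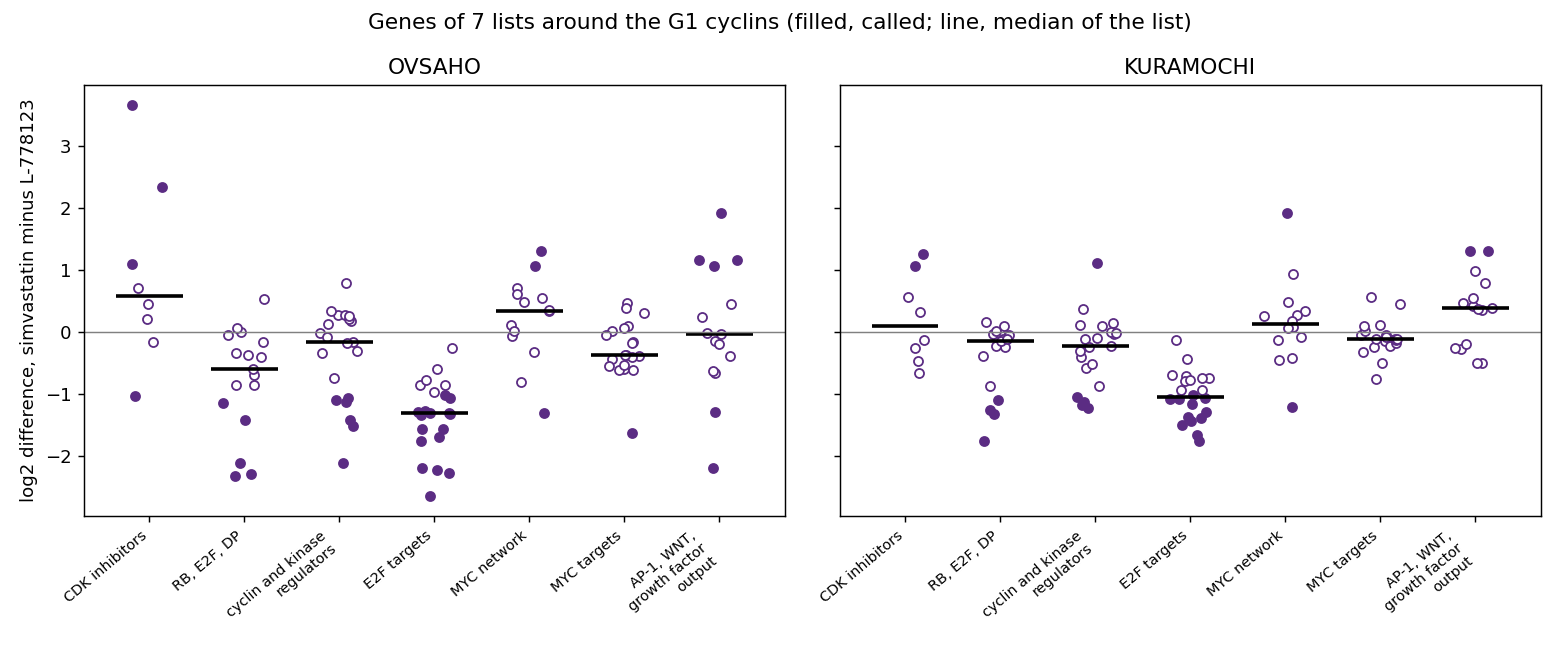
Log2 difference between simvastatin and L-778123 in OVSAHO (left) and KURAMOCHI (right) for the tested genes of 7 lists, with 1 point per gene, filled where the gene was called, and a bar at the median of the list. All 22 E2F target genes lay below 0 in both lines, with medians of -1.30 and -1.04, and the MYC target genes had medians of -0.37 and -0.11.

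Of 20 MYC target genes, 1 was called in OVSAHO, TERT, the catalytic subunit of telomerase (3.08-fold lower, -1.62, SE 0.0532), and 0 were in KURAMOCHI, with medians of -0.37 and -0.11. Of 14 genes of the MYC network, 2 were called higher and 1 lower in OVSAHO, and 1 and 1 in KURAMOCHI, with medians of 0.34 and 0.13. MXI1 and MXD1, which compete with MYC for MAX, were 2.47-fold and 2.09-fold higher with simvastatin in OVSAHO, while MAX itself was 1.26-fold higher in both lines and was not called. In OVSAHO the MAX difference of 0.34 and the network median of 0.34 include the 0.30 added by scaling between arrays. In KURAMOCHI these values were 0.34 and 0.13, of which scaling added 0.14. MYCN was at least 1.98-fold lower in OVSAHO, where it was not well above background with simvastatin, and 2.30-fold lower in KURAMOCHI (-1.20, SE 0.245, adjusted p = 0.0162). MLXIPL was at least 3.62-fold higher in KURAMOCHI, where it was not well above background with L-778123. In KURAMOCHI the count for this network fell from 2 to 1 without KURAMOCHI simvastatin replicate 1, KURAMOCHI L-778123 replicate 1 or KURAMOCHI L-778123 replicate 2, and to 0 with normexp.

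Of 15 AP-1, WNT and growth factor output genes, a list that holds activators of the D-type cyclins and also feedback genes of these pathways such as DUSP6, SPRY4 and AXIN2, 4 were called higher and 2 lower with simvastatin in OVSAHO, and 2 were called higher in KURAMOCHI, with medians of -0.034 and 0.39. The OVSAHO median ran from -0.11 to 0.056 with each array left out in turn and was above 0 without OVSAHO simvastatin replicate 1 or OVSAHO L-778123 replicate 2. The AP-1 subunit gene JUNB was 3.78-fold higher in OVSAHO (1.92, SE 0.0594, adjusted p = 2.43e-05), JUN was 2.25-fold higher and EGR1 2.09-fold higher there. DUSP6, a phosphatase of ERK that is induced by ERK signalling, was 4.57-fold lower in OVSAHO (-2.19, SE 0.0693, adjusted p = 2.55e-05) with a value of -0.18 in KURAMOCHI, and the difference between the lines was -2.01 (SE 0.0979). ETV4 was 2.43-fold lower in OVSAHO. The 4th gene counted as higher there was ETS1, which was not well above background in either OVSAHO group and has no fold. In KURAMOCHI EGR1 was 2.49-fold and FOS 2.47-fold higher. In OVSAHO 3 genes of this list were called with normexp and 3 without scaling between arrays, in place of 6.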

How the data were processed

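The 8 one-color SurePrint G3 arrays, grouped by the sample labels, held RNA of both cell lines with each drug. The authors extracted the scans with Agilent Feature Extraction 11.5.1.1 (per the submitters' processing notes) and deposited the processed intensity of each spot, which the software had corrected for background but not normalized between arrays. They also deposited a table of normalized intensity, used here as an alternative.

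Control spots and outlier spots (58 to 99 per array) were dropped, log2 intensities were expressed over each array's 75th percentile, and spots of a probe were averaged. Of 58201 probes, 58162 were used, 51.8% to 57.5% of them well above background per array, none saturated, and replicate arrays correlated at r = 0.995 to 0.996. In R 4.3.3, limma 3.58.1 (lmFit, then eBayes, with 4 group means, a shared spread and Benjamini-Hochberg adjustment over all tested probes) was run on the 33753 probes that exceeded background in both arrays of some group. Thresholds were those of the methods, whose own two-way analysis of variance, followed by Tukey's test, is an alternative. A probe below background in a whole group has only a bound there, from the lowest signal well above background. Identifiers were named through a RefSeq table of GRCh38.p14, while the array was designed on another build, so no probe coordinates are given. It named 24782 of 50096 identifiers, 31104 probes and 16955 tested genes. Start windows also came from RefSeq. The fit was tested on simulated data. Figures were drawn with matplotlib 3.10.9.

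The genes, lists and tests were chosen with earlier results of these data known. Named list genes are up to 2 called genes with the largest rise and fall per list and line, with a few set genes (E2F1, CDKN1A, CDKN1B, CDKN2A, MAX, MKI67). CDKN2B and, for OVSAHO, EGR1 and ETS1 were added after their values were seen. Likeness covers genes above background on all arrays. The alternatives comprised quantile normalization, a 75th percentile taken over bright probes only, normexp (offset 50) on the median spot signal, stricter and looser filters on dim probes, the authors' table, the replicate block, a floor, analysis of variance, a 1.5-fold threshold, the median probe of a gene, the arrays of 1 line alone, each array left out and, added after seeing the data, no scaling.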

Additional observations from a re-analysis of the deposited data

Results flagged for a closer look

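The drug difference (simvastatin minus L-778123) differed between OVSAHO and KURAMOCHI by a direct test for 3 of the 9 genes. The criterion was the adjusted p alone, which 22.9% of all tested probes passed. For CCND1 the difference of differences was -1.47 on the log2 scale (limma, adjusted p = 0.000909), with CCND1 lower with simvastatin in both lines and further apart in OVSAHO. CCNE1 gave -0.73 (adjusted p = 0.00357), again lower with simvastatin in both lines. CCND3 gave 0.54 (adjusted p = 0.00943), being higher with simvastatin in OVSAHO and not separated in KURAMOCHI, and this value was 0.38 (adjusted p = 0.0756) without scaling between arrays. Groups of 2 arrays were too small to test single arrays as outliers.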

How the results depend on the processing

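Across 21 alternatives for OVSAHO, 4 or 5 of the 9 genes were called, with 4 under normexp, without OVSAHO simvastatin replicate 2 and without OVSAHO L-778123 replicate 2, and CDK2 was the gene lost each time. At 1.5-fold 4 genes were called in KURAMOCHI in place of 1, 5 between the lines in place of 3, and 2 for the difference of drug differences in place of 1. A lower threshold can only add calls, and the share of all tested probes called at 1.5-fold was not computed. Without the filter on dim probes 4 genes were called between the lines. The added one was CCND2, whose probe was well above background on 1 of 8 arrays. Of all 58162 probes, 6436 were then called higher and 6215 lower. Without scaling between arrays, an alternative chosen after seeing the data, 2 genes were called in KURAMOCHI. With each array left out in turn, the counts were 4 to 5 in OVSAHO, 1 in KURAMOCHI, 3 between lines and 1 for the difference. Of the log2 differences of single genes, 1077 were unchanged in direction and side of the threshold, 11 passed it newly, 3 no longer passed it (all CDK2 in OVSAHO) and 7 changed sign. The 7 had not passed the threshold before. RB1 in OVSAHO became -0.29 without scaling, -0.035 with normexp, -0.042 without OVSAHO simvastatin replicate 2 and -0.038 without OVSAHO L-778123 replicate 2, with a range of -0.042 to 0.049 over the arrays left out in turn. RB1 in KURAMOCHI became -0.037 without scaling, CCND3 in KURAMOCHI became 0.0048 with quantile normalization, and the difference of CCNE2's drug differences, OVSAHO minus KURAMOCHI, became 0.012 with normexp. The cause was not tested. The 11 new passes came at 1.5-fold, apart from that of CDK6 in KURAMOCHI without scaling. Some unchanged values could not move, such as the median probe of a gene with 1 probe. The same holds for a line's drug difference when an array of the other line was left out. Of the counts and medians of gene lists, 974 were unchanged and 146 moved. Over all probes, normexp called 746 higher and 811 lower in OVSAHO in place of 1612 and 2089, and 202 and 455 in KURAMOCHI in place of 692 and 1196. Between the lines it called 3360 and 3078 in place of 5927 and 5441, and for the difference 641 and 388 in place of 1302 and 1096. Probes above background on all arrays, of which there are fewer, gave 996 and 1191 in OVSAHO, 343 and 601 in KURAMOCHI, 3600 and 3272 between lines and 734 and 597 for the difference. The analysis of variance called 383 and 729 in KURAMOCHI. Without the filter on dim probes the median of all probes was 0.21 in OVSAHO.

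The deviations of same-numbered arrays correlated between 0.0008 and 0.056, so no strong shared deviation was seen. With 2 arrays per group this cannot tell whether same-numbered arrays were cultured or processed together. With the replicate block 5 genes were called in OVSAHO, 1 in KURAMOCHI, 3 between lines and 1 for the difference. Every group held both replicate numbers, so the block could change only the p-values and not the log2 differences. CCND1 in OVSAHO therefore stayed at -2.04. The calls over all probes were 1605 and 2083 in OVSAHO and 678 and 1175 in KURAMOCHI. The 2 arrays per group and the single slide limit the precision.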
